A study of Homo sapiens with 10 samples.

Results

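The collagen genes were taken as the 43 genes whose symbol is COL, a number, A and a number, without COL17A1, a hemidesmosome component of the transmembrane class. All 43 were present in both deposited count tables, among 26256 genes in the table of untreated cells and 55736 genes in the table of the Nutlin-3a experiment. RNA-seq libraries were made from MCF10A, an immortalized, nontransformed human mammary epithelial cell line, in 4 groups. The first comparison set 2 libraries of untreated cells labelled parental (MCF10A) against 2 libraries of untreated MCF10A cells carrying the oncogenic HRas mutant (G12V), in which a substitution locks the Ras GTPase in its active state. The second compared 3 libraries of parental MCF10A cells given 10 µM Nutlin-3a for 4 h with 3 libraries of parental cells given the DMSO vehicle for 4 h. Nutlin-3a blocks MDM2, the ubiquitin ligase that targets p53 for degradation, and so stabilizes p53. By the study's methods, mutant HRas was delivered by lentivirus together with a GFP vector, and carriers were selected with hygromycin, so the G12V cells also differ from parental cells by transduction and drug selection, and the labels name no mock-transduced control. All groups grew in the same medium with EGF, insulin, hydrocortisone, cholera toxin and horse serum, and the labels call the replicates of a group biological replicas.

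Collagens are extracellular matrix proteins whose alpha chains wind around each other in a triple helix, which needs glycine at regular positions and hydroxylated prolines for its stability. Fibrillar collagens form the banded fibrils of connective tissue, type IV collagen forms the sheet-like network of basement membranes, type VII collagen makes the anchoring fibrils that fasten an epithelial basement membrane to the matrix beneath it, and type VI collagen assembles into beaded microfilaments. FACIT collagens (fibril-associated collagens with interrupted triple helices) decorate fibrils, transmembrane collagens stay in the plasma membrane, and multiplexins carry long non-collagenous domains in basement membrane zones. Mammary epithelium rests on a basement membrane, and its basal cells secrete part of it.

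The 6 type IV genes lie as head-to-head pairs that point away from each other across a short gap, which holds a shared, bidirectional promoter in the pairs studied best. COL4A1 and COL4A2 are on chromosome 13, COL4A4 and COL4A3 on chromosome 2, and COL4A6 and COL4A5 on the X chromosome. The gaps are shown because the members of a pair are compared with each other in the results. Both sequences were read from the forward strand of GRCh37 between the annotated first exons, so the first gene of each name lies to the left on the reverse strand. Capitals mark the CCAAT box (CCAAT, or ATTGG on the opposite strand) and the GC box (GGGCGG, or CCGCCC on the opposite strand). The first is the whole part of the gap free of GENCODE exons, at chr13:110959505-110959604, 100 bases. The second is the central 300 of 340 such bases, at chrX:107682748-107683047. The 5' ends of these pairs lie 126 and 346 bp apart in the table of untreated cells. They lie 117 and 409 bp apart in that of the Nutlin-3a experiment.

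COL4A1/COL4A2: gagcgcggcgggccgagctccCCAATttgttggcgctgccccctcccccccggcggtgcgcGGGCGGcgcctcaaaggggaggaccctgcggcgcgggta

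COL4A6/COL4A5: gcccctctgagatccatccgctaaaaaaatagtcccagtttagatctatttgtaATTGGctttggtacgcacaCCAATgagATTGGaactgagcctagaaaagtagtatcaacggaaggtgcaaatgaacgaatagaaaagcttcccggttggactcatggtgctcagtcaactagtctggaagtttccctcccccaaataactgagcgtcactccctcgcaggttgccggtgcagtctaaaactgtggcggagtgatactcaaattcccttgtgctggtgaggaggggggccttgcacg

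The COL4A1/COL4A2 gap had a GC content of 78.0% and held 1 CCAAT box and 1 GC box. Of 35116 RefSeq promoter windows of the same length (GRCh38.p14), 18.1% held a CCAAT box and 31.3% a GC box. The COL4A6/COL4A5 stretch had a GC content of 49.0%, with 3 CCAAT boxes and no GC box, where 34.6% and 45.0% of 300-base windows held them. The third pair was separated by 5 bp in the table of untreated cells and by 451 bp in that of the Nutlin-3a experiment, and no sequence is shown for it. These matches are a description of letters only.

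Of the 43 collagen genes, 25 had enough reads to be tested between MCF10A and G12V cells, and 20 of these 25 were also tested in the Nutlin-3a experiment. The other 18 were tested in neither. Of these 18, 16 had at most 3 counts in each of the 10 libraries, and 3 of them (COL6A6, COL9A1 and COL19A1) had no read anywhere. The fibril-forming interstitial chains were among the scarce genes. COL1A2 had 1 and 0 counts in MCF10A and none in G12V, and COL3A1 had none in these 4 libraries. COL5A1 had no count in MCF10A and 0 and 6 in G12V. COL22A1, a FACIT collagen of tissue junctions, had no count in MCF10A and 4 and 19 in G12V, too few for the filter. In parental cells it had 3, 3 and 6 counts after DMSO and 1, 8 and 2 after Nutlin-3a.

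The 10 libraries held between 15453226 and 23683975 counts, so that 3 counts correspond to 0.128 to 0.136 CPM (a gene's counts scaled to a common library size, with TMM normalization) in the untreated libraries and 0.166 to 0.197 CPM in the Nutlin-3a experiment. HRAS stood at 72.6 and 65.9 CPM in MCF10A and at 631 and 515 CPM in G12V cells (log2 fold change 3.05), with endogenous and introduced transcripts counted together. The labels call the cells epithelial. The summed level of 10 mammary epithelial markers was 9876 to 10480.3 CPM in MCF10A and 1484 to 1794 CPM in G12V cells, with 8 of the 10 down-regulated. CDH1, or E-cadherin, was at 0.428 and 0.535 CPM in G12V against 199.5 and 238 CPM in MCF10A. KRT8 and KRT18, the keratins of simple epithelia, were each above 171 CPM in all 4 libraries. Endothelial markers summed to 9.00 to 33.3 CPM in MCF10A and 10.5 to 15.5 CPM in G12V cells, and blood cell markers to 32.0 to 50.7 CPM and 60.6 to 114 CPM, with PTPRC and CD3E at 1 count or 0 in each library. CD68, a lysosomal protein of macrophages on the blood cell list, was up-regulated from 12.3 and 12.1 CPM in MCF10A to 37.3 and 72.7 CPM in G12V cells (log2 fold change 2.17, edgeR adjusted p = 0.0155). In bulk RNA, fewer cells of a type and less RNA per cell cannot be told apart.

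To find the collagens that differed between the untreated groups, edgeR's quasi-likelihood test was applied to these 4 libraries, and a gene was called up- or down-regulated at a Benjamini-Hochberg adjusted p under 0.05 with a log2 fold change beyond 0.5. Of the 25 tested collagens, 6 were up-regulated in G12V cells: COL4A1, COL6A1, COL6A2, COL9A3, COL12A1 and COL13A1. Another 6 were down-regulated: COL2A1, COL4A3, COL4A4, COL4A6, COL7A1 and COL16A1. Over all 14376 genes tested, 5.01% were called higher and 5.95% lower, 11.0% in either direction. The MCF10A and G12V libraries did not overlap in 20 of the 25 collagens and in 54.8% of all genes. The members moved in both directions, with 12 positive and 13 negative log2 fold changes, and their median was -0.084 against -0.0011 over all genes. This fit did not use the replicate numbers. A fit with them as a block called 10 collagens higher and 10 lower, beside 2071 and 2087 of all 14376 genes. The calls rest on few libraries. Without MCF10A replicate 1, no gene of any kind was called by edgeR (lowest adjusted p 0.0502), although 17 of 26 collagens and 2830 of 14883 genes then had an unadjusted p under 0.05 and every called collagen kept its direction. The lone remaining sample is assumed there to vary like the other group.

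**Figure D1:**
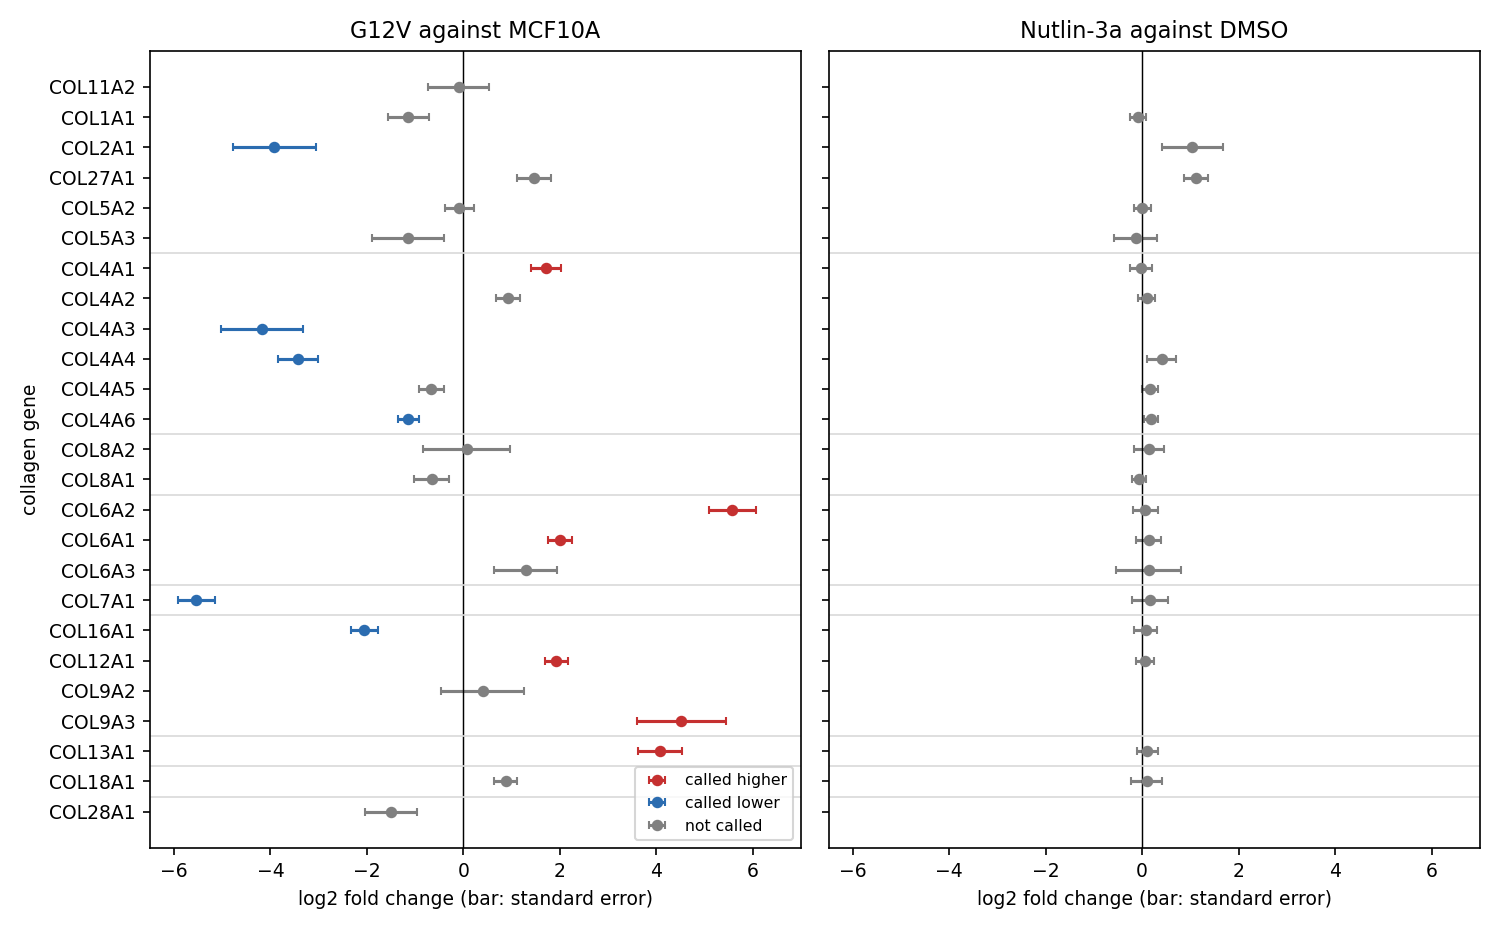
Log2 fold changes of the collagen genes tested, with standard errors as bars, for G12V against MCF10A (left, 25 genes) and Nutlin-3a against DMSO (right, 20 genes). Genes are grouped by class and coloured by call. On the left the values run from -5.53 (COL7A1) to 5.58 (COL6A2), and on the right from -0.13 (COL5A3) to 1.12 (COL27A1), none of them called.

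Of the 6 type IV genes, COL4A1 was up-regulated and COL4A3, COL4A4 and COL4A6 were down-regulated. COL4A1 and COL4A2, whose chains form the heterotrimer of nearly all basement membranes, were higher in both G12V libraries than in either MCF10A library. COL4A1 was at 71.6 and 47.7 CPM in MCF10A and at 152 and 238 CPM in G12V cells, which is a rise of 1.71 on the log2 scale (SE 0.31, n = 2 per group, edgeR adjusted p = 0.0222). COL4A2 was at 215 and 159 CPM in MCF10A and at 315 and 393 CPM in G12V cells. The log2 difference was 0.92 (SE 0.24) with an edgeR adjusted p of 0.0666, so it was not called, although the groups did not overlap. Per kilobase of transcript, the ratio of COL4A1 to COL4A2 was 0.328 and 0.296 in MCF10A libraries and reached 0.475 and 0.596 in G12V cells.

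COL4A3 and COL4A4, which join COL4A5 in the network of kidney glomeruli and other sites, were both down-regulated. COL4A4 was at 6.59 and 8.15 CPM in MCF10A and at 0.513 and 0.847 CPM in G12V cells, and fell by 3.43 on the log2 scale (SE 0.42, edgeR adjusted p = 0.0069). COL4A3 had 24 and 33 counts in MCF10A and 3 and 0 in G12V cells, a ratio of 19.5-fold lower with a 95% counting interval of 6.33 to 97.2 (exact, Clopper-Pearson; edgeR adjusted p = 0.0303). An exon of MFF-DT, on the opposite strand, overlaps 838 exonic bases of COL4A3. Because the library kit did not mark strand, reads of such partners cannot be told apart.

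COL4A5 and COL4A6, the X-linked pair whose chains form a network under epithelia and around smooth muscle, were abundant in both cell types. COL4A6 was at 123 and 165 CPM in MCF10A and at 72.1 and 58.8 CPM in G12V cells and fell by 1.14 on the log2 scale (SE 0.22, edgeR adjusted p = 0.0276). This call was lost without MCF10A replicate 2 (adjusted p = 0.0797) and without G12V replicate 2 (0.0672). COL4A5 was at 109.8 and 171 CPM in MCF10A and at 80.9 and 95.8 CPM in G12V cells, a log2 difference of -0.67 (SE 0.26, edgeR adjusted p = 0.172). The groups did not overlap in either gene, and the COL4A5 to COL4A6 ratio per kilobase went from 0.910 and 1.06 in MCF10A to 1.15 and 1.67 in G12V cells. The 6 type IV genes were without overlap between the groups, as were 54.8% of all genes, and 4 of the 6 were called in either direction, against 11.0% of all genes.

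COL7A1 (chr3:48601506-48632593, reverse strand, hg19) encodes the only chain of the anchoring fibril and showed the largest fall among the 25 tested collagens. It had 3298 and 2102 counts in MCF10A and 76 and 44 counts in G12V cells, or 149.9 and 92.6 CPM against 3.25 and 1.96 CPM. The log2 fold change was -5.53 (SE 0.39, edgeR adjusted p = 0.0014), a fall to 0.0216 of the MCF10A level. By level per kilobase COL7A1 ranked 5th among the 43 collagens in MCF10A and 16th in G12V cells. KRT14, CDH1 and the other down-regulated epithelial markers fell in the same libraries, and their part in the result was not tested.

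Of the 5 type VI genes, 3 were tested, and COL6A1 and COL6A2 were up-regulated, beside 5.01% of all genes tested. COL6A1, COL6A2 and COL6A3 encode the classical chains of the beaded filament, and COL6A1 and COL6A2 are neighbours in the same orientation on chromosome 21. COL6A1 was at 9.73 and 12.7 CPM in MCF10A and at 40.2 and 49.7 CPM in G12V cells, which is a rise of 2.0 on the log2 scale (SE 0.25, edgeR adjusted p = 0.0074). COL6A2 (chr21:47518033-47552763, forward strand) had 4 and 5 counts in MCF10A and 178 and 272 in G12V cells, or 0.182 and 0.220 CPM against 7.61 and 12.1 CPM. Its log2 fold change of 5.58 (SE 0.49, edgeR adjusted p = 0.0030) was the largest rise among the tested collagens, and the ratio of summed counts was 48.8 with a 95% counting interval of 25.5 to 107. In parental cells given DMSO, normalized separately, COL6A2 was at 2.99, 4.91 and 4.78 CPM, between the MCF10A and G12V levels.

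COL6A3 was uneven in MCF10A. It stood at 11.9 CPM in replicate 1 and 2.55 CPM in replicate 2, and at 15.8 and 19.6 CPM in G12V cells. Both G12V libraries were above both MCF10A libraries, yet the log2 difference of 1.29 (SE 0.66, edgeR adjusted p = 0.293) was not called. In parental cells given DMSO, normalized separately, COL6A3 was at 64.4, 126 and 24.6 CPM, above both G12V libraries. Per kilobase COL6A1 exceeded COL6A2 by 43.9 and 47.2 times in MCF10A and by 4.33 and 3.36 times in G12V cells. COL6A5 and COL6A6, the remaining type VI genes, had no count in these 4 libraries. Fibroblasts are a main source of type VI collagen in tissue, and 10 fibroblast markers summed to 159 to 220.0 CPM in MCF10A and 124 to 151 CPM in G12V cells. FAP was down-regulated and LUM up-regulated among the 6 tested. DCN was at 25.3 and 58.3 CPM in MCF10A and at 48.5 and 53.1 CPM in G12V cells. PDPN was at 56.9 and 76.6 CPM in MCF10A and at 53.4 and 69.1 CPM in G12V cells, and neither was called. DPT had no count in these 4 libraries, and THY1 had 0 and 1 counts in MCF10A and none in G12V cells. The part of these markers in the result was not tested.

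Among FACIT collagens, 2 rose, 1 fell and 1 of the 4 tested was not called, beside 5.01% of all genes called higher and 5.95% lower. COL12A1, a large collagen that binds fibrils in tissues under tension, was at 59.2 and 40.8 CPM in MCF10A and at 181 and 199 CPM in G12V cells (log2 fold change 1.92, SE 0.24, edgeR adjusted p = 0.0072). COL16A1, found in fibrillin microfibrils and near basement membranes, was at 18.2 and 23.8 CPM in MCF10A and at 4.53 and 5.58 CPM in G12V cells. It fell by 2.05 on the log2 scale (SE 0.28, edgeR adjusted p = 0.0097), without overlap, as in COL12A1.

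Type IX collagen, a cartilage FACIT built from COL9A1, COL9A2 and COL9A3 chains, was at or near the detection limit. COL9A3 had 1 and 0 counts in MCF10A and 11 and 18 in G12V cells, a ratio of 28.3 with a 95% counting interval of 4.69 to 1156 (edgeR adjusted p = 0.0321). That call was lost with DESeq2 (adjusted p = 0.0745), without a filter (0.0525) and without MCF10A replicate 2 (0.139), and 155 exonic bases are shared with TCFL5 on the other strand. COL9A2 had 16 and 4 counts in MCF10A and 6 and 21 in G12V cells, overlapping, and COL9A1 had none.

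COL13A1 is a transmembrane collagen found at cell-matrix adhesions and neuromuscular junctions. It had 47 and 27 counts in MCF10A and 471 and 808 in G12V cells, or 2.14 and 1.19 CPM against 20.1 and 36.0 CPM. The log2 fold change was 4.08 (SE 0.46, edgeR adjusted p = 0.0055), a 16.9-fold rise, and its rank per kilobase went from 16th to 8th. COL23A1 and COL25A1, of the same class, had at most 1 count in each of the 10 libraries.

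COL18A1, a basement membrane multiplexin and the precursor of endostatin, was at 9.41 and 8.54 CPM in MCF10A and at 15.6 and 17.4 CPM in G12V cells. The log2 difference of 0.88 (SE 0.25) had an edgeR adjusted p of 0.0787, so it was not called at this depth, and 1563 of its exonic bases overlap SLC19A1 on the opposite strand. COL15A1, the other multiplexin, had 1 count in 1 MCF10A library. COL8A1, a short-chain network collagen of vessel walls and Descemet's membrane, was at 149 and 212 CPM in MCF10A and at 76.2 and 152 CPM in G12V cells, which overlapped (log2 difference -0.66, SE 0.36, edgeR adjusted p = 0.331). Its partner COL8A2 was at 0.529 CPM or below in MCF10A and 0.580 CPM or below in G12V cells.

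Fibrillar collagens were scarce, and 1 of the 6 tested was called, beside 11.0% of all genes in either direction. COL2A1, the main cartilage collagen, had 18 and 15 counts in MCF10A and 0 and 2 in G12V cells, a ratio of 16.9-fold lower with a 95% counting interval of 4.32 to 145 (edgeR adjusted p = 0.0407). The call was lost with DESeq2 (adjusted p = 0.0643), without a filter (0.0626), without MCF10A replicate 2 (0.0593) and without G12V replicate 1 (0.0780). COL27A1, a fibrillar collagen of cartilage and developing epithelia, was at 5.00 and 3.74 CPM in MCF10A and at 14.8 and 9.50 CPM in G12V cells, without overlap.

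Its log2 difference was 1.47 (SE 0.35), with an edgeR adjusted p of 0.0514 that did not pass the threshold. COL1A1 was at 11.5 and 5.86 CPM in MCF10A and at 3.25 and 4.64 CPM in G12V cells (log2 difference -1.14, SE 0.43, edgeR adjusted p = 0.166). COL5A2 was between 6.71 and 8.81 CPM in all 4 libraries. COL5A3 and COL11A2 were below 0.9 CPM in these 4 libraries, and COL28A1, a collagen of the nervous system, was at 1.00 and 1.72 CPM against 0.641 and 0.312 CPM (edgeR adjusted p = 0.152).

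**Figure D2:**
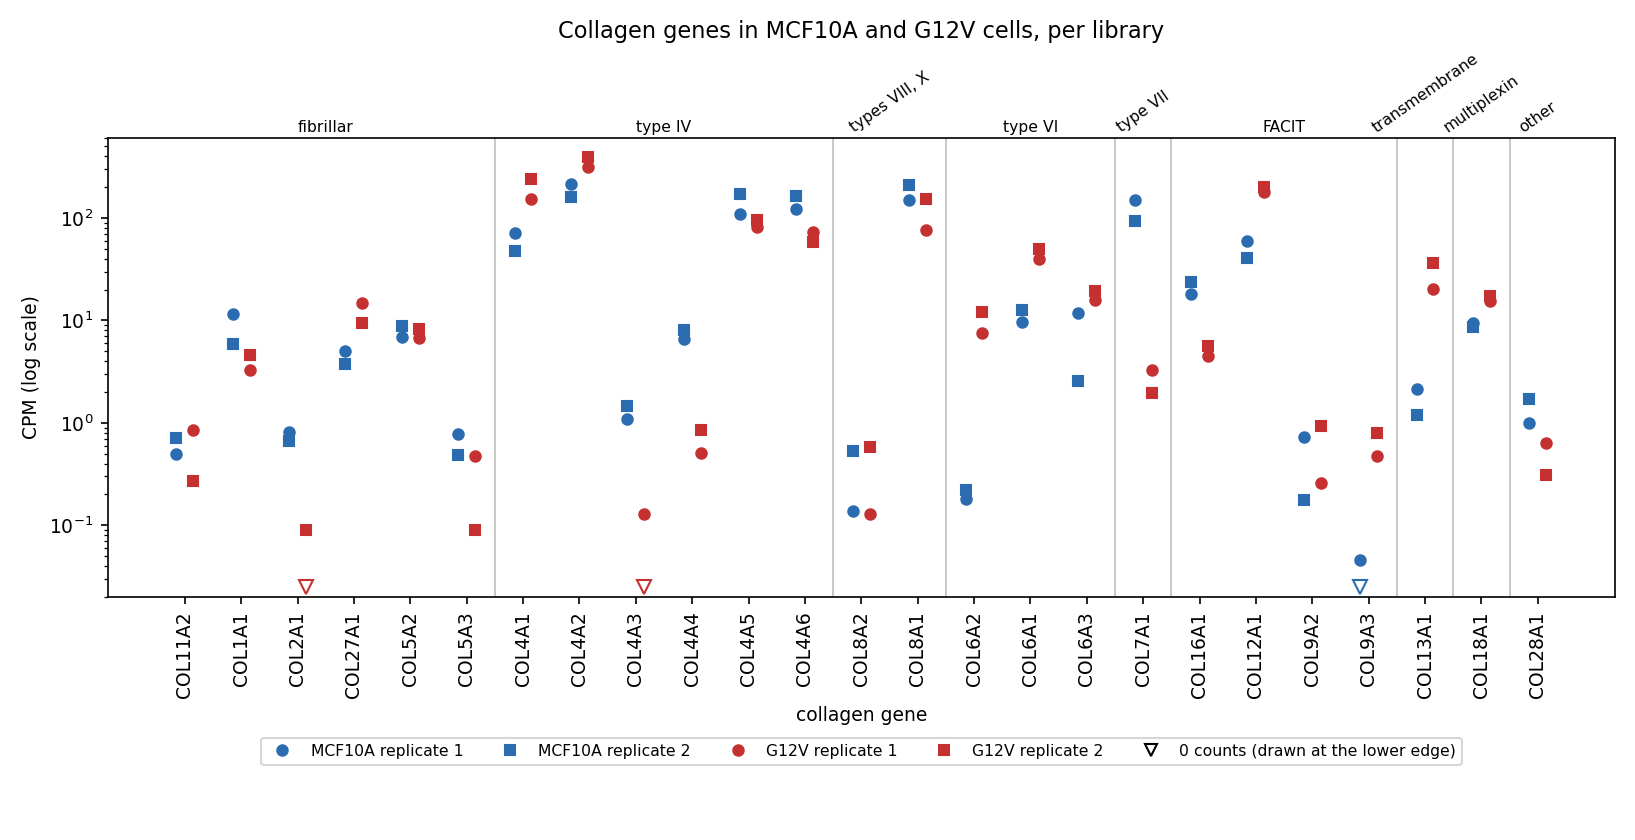
CPM of the 25 tested collagen genes in each MCF10A (blue) and G12V (red) library, on a log axis, grouped by class, with libraries at 0 counts drawn as open triangles at the lower edge. The colours separate fully in 20 genes, with COL7A1 at 149.9 and 92.6 CPM in MCF10A against 3.25 and 1.96 CPM in G12V cells and COL6A2 in the opposite order.

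To compare the classes with each other, CPM were divided by the length of each gene's MANE Select transcript and summed. The lengths come from GENCODE v44lift37, not from the authors' annotation. The sum over the 43 collagens was 142 and 149 CPM per kb in MCF10A and 152 and 203 in G12V cells. Type IV made up 56.4% and 56.3% of this sum in MCF10A and 62.5% and 59.6% of it in G12V cells. Type VI went from 2.46% and 2.23% to 8.71% and 8.49%, and type VII from 11.4% and 6.73% to 0.231% and 0.105%. In parental cells given DMSO, normalized separately, type VI made up 6.92%, 9.54% and 7.04%, a range that spans the G12V values. Type IV made up 61.3%, 62.0% and 62.5% there, and type VII 2.57%, 4.23% and 2.73%. Fibrillar collagens together stayed between 1.63% and 2.80% in the MCF10A and G12V libraries. The highest levels per kilobase in MCF10A were those of COL8A1 (26.9 and 38.4) and COL4A2 (33.3 and 24.6), which overlapped, and COL4A6 (18.5 and 24.8) and COL4A5 (16.8 and 26.2) came next with overlapping values. In G12V cells COL4A2 (48.9 and 61.0) came first, above COL4A1 (23.2 and 36.4), whose values overlapped those of COL8A1 (13.8 and 27.6), and COL12A1 (15.4 and 16.9) was 4th. These sums and shares were not tested.

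**Figure D3:**
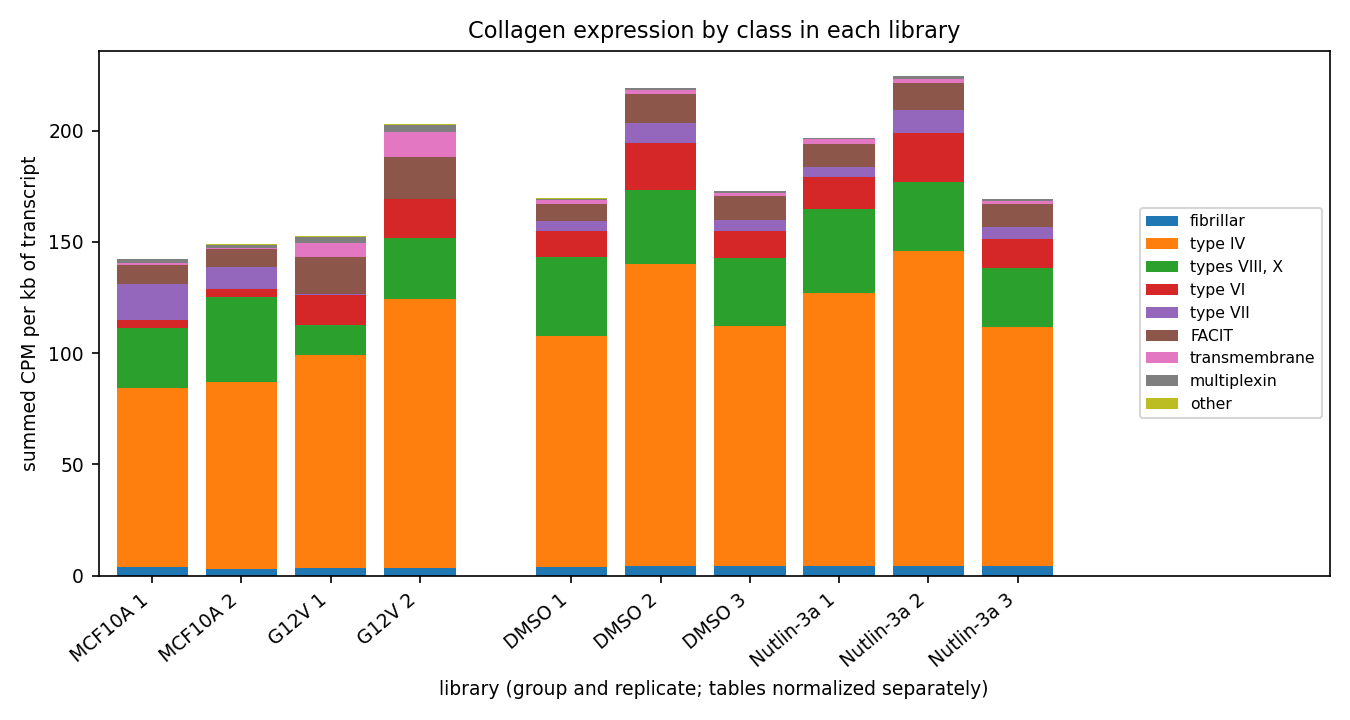
Stacked bars of CPM per kilobase of transcript summed by collagen class in each of the 10 libraries, with the untreated table on the left and the Nutlin-3a table on the right, which were normalized separately. Type IV (orange) is the largest class in every library, and type VII (purple) falls from 16.2 and 10.0 CPM per kb in MCF10A to 0.352 and 0.213 in G12V cells.

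Collagen chains are hydroxylated and folded in the endoplasmic reticulum, exported in large carriers, trimmed by proteinases and cross-linked outside the cell. Of 43 genes on a list of these steps, 33 were tested between MCF10A and G12V cells, with 6 called higher and 3 called lower, beside 5.01% and 5.95% of all genes tested. Of these 33, 29 had a positive log2 fold change and the median was 0.71, against -0.0011 over all genes. Prolyl 3-hydroxylases differed among themselves. P3H3 was at 11.0 and 7.31 CPM in MCF10A and at 46.6 and 53.9 CPM in G12V cells (log2 fold change 2.46, SE 0.28, edgeR adjusted p = 0.0057). P3H1 went from 46.9 and 44.2 to 72.7 and 97.9 CPM (0.91, SE 0.21, adjusted p = 0.0470). P3H2, which acts on type IV collagen, went from 69.8 and 86.1 CPM down to 17.7 and 34.3 CPM (-1.58, SE 0.34, adjusted p = 0.0370).

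Among the cross-linking enzymes, LOXL2, a lysyl oxidase that cross-links type IV collagen, was at 31.9 and 18.5 CPM in MCF10A and at 117 and 148 CPM in G12V cells (log2 fold change 2.39, SE 0.31, edgeR adjusted p = 0.0081). TGM2, a transglutaminase, rose by 3.14 (SE 0.38, edgeR adjusted p = 0.0067) and LOXL1 fell by 2.36 on the log2 scale (SE 0.33, adjusted p = 0.0103). PXDN, the peroxidase that forms sulfilimine bonds in type IV collagen, was the most abundant of this class and was not called (log2 difference -0.36, adjusted p = 0.456).

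SEC24D, a coat protein of the vesicles that carry procollagen, rose by 1.58 (SE 0.30, edgeR adjusted p = 0.0257), and PCOLCE2, an enhancer of procollagen C-proteinase, by 2.26 (SE 0.28, adjusted p = 0.0074). TLL1, a proteinase of the BMP1 family, had 158 and 70 counts in MCF10A and 0 in both G12V libraries, so it was at least 39.2-fold lower, taking 3 counts per library as the floor (edgeR adjusted p = 0.0095). P4HB, PLOD2, HSPA5 and BMP1, the most abundant genes of their classes, had log2 differences from 0.82 to 0.96 and edgeR adjusted p from 0.0609 to 0.208, and were not called.

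Of 11 collagen receptors, 10 were tested, with 1 called higher and 2 lower, beside 11.0% of all genes in either direction. DDR1, a receptor tyrosine kinase for collagen, was at 198 and 280.2 CPM in MCF10A and at 42.6 and 65.4 CPM in G12V cells (log2 fold change -2.15, SE 0.30, edgeR adjusted p = 0.0097). ITGA2, a collagen-binding integrin subunit, went from 176 and 228 to 57.2 and 79.3 CPM (-1.57, SE 0.25, adjusted p = 0.0143). ITGB1, its beta partner, was at 1398 and 1383 CPM in MCF10A and at 995 and 1104 CPM in G12V cells and was not called (-0.41, adjusted p = 0.363). OSCAR had 3 and 2 counts in MCF10A and 16 and 44 in G12V cells, a ratio of 11.7 with a counting interval of 4.75 to 37.4 (edgeR adjusted p = 0.0402).

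**Figure D4:**
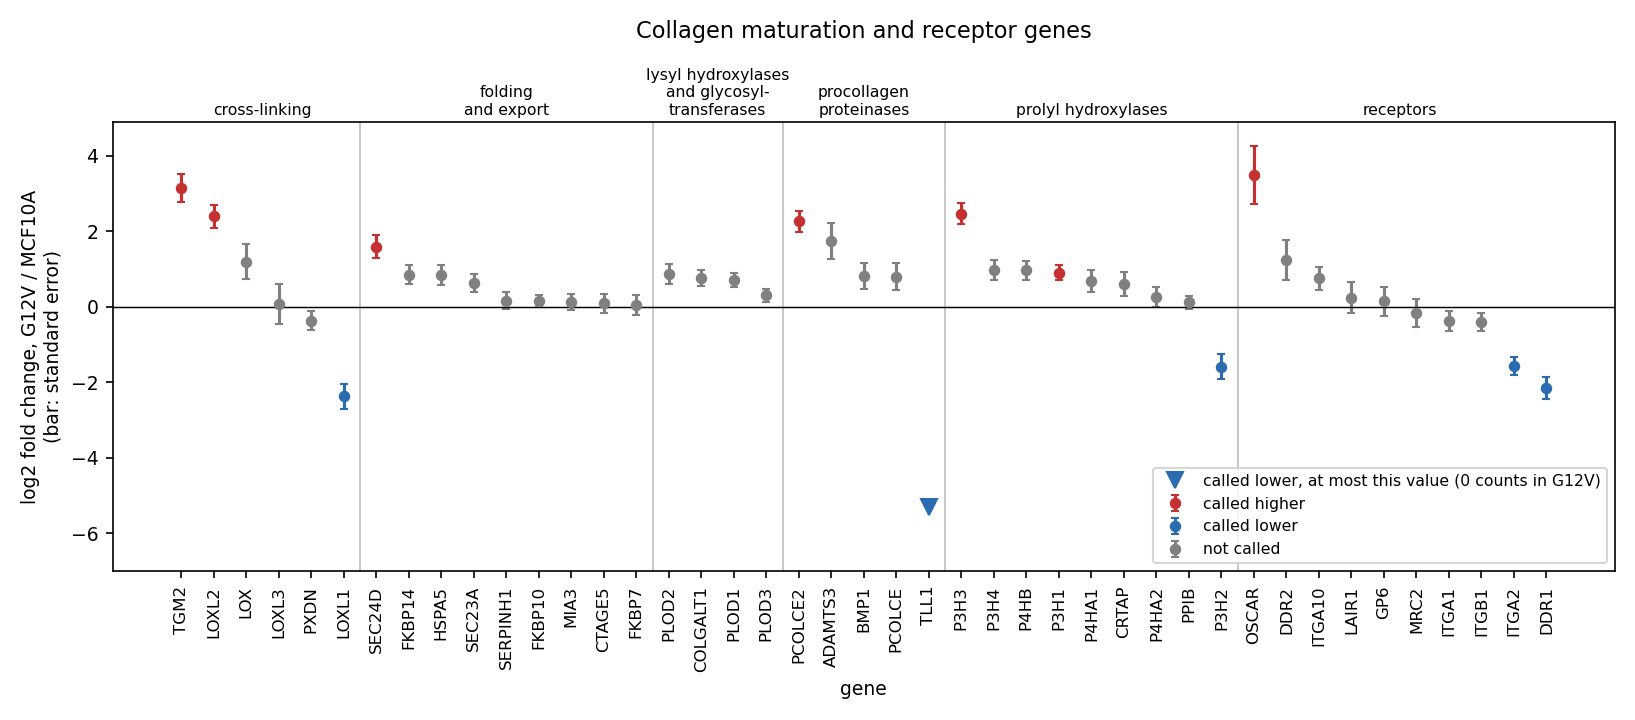
Log2 fold changes (G12V over MCF10A) of the 43 tested genes of collagen maturation and collagen receptors, by step, with standard errors as bars. Of these, 7 are called higher (red) and 5 lower (blue), and TLL1 is drawn as a triangle at its bound because it had 0 counts in G12V cells.

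To ask whether short activation of p53 moved the same genes, Nutlin-3a was compared with DMSO in parental cells. Of the 20 collagens tested, none was called by edgeR's quasi-likelihood test, where 0.155% of 13529 genes were called higher and 0.0148% lower, 0.17% in either direction. That fit did not use the replicate numbers, and a fit with them as a block called 1 collagen. Without the block, 1 of the 20 collagens had an unadjusted p under 0.05, as did 463 of all 13529 genes. DESeq2 called 0 collagens and edgeR's exact test 1. Log2 differences were positive in 16 of 20 members, and their median was 0.10 against 0.0066 over all genes. Leaving out 1 library moved this median between -0.0070 (without DMSO replicate 1) and 0.24 (without DMSO replicate 2).

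COL27A1 was that 1 gene, and the only tested member whose groups did not overlap, where 8.07% of all genes did not. It had 30, 43 and 29 counts after DMSO and 72, 74 and 60 after Nutlin-3a, or 1.66, 2.64 and 1.69 CPM against 4.43, 4.59 and 3.95 CPM. The log2 difference was 1.12 (SE 0.25, n = 3 per group) with an edgeR adjusted p of 0.339. Libraries of the same number deviated together, so the numbers pair the samples. With the replicate number as a block, COL27A1 was called higher (log2 fold change 1.13, edgeR adjusted p = 0.0122), in a fit that called 0.702% of all genes higher and 0.517% lower. The exact test gave an adjusted p of 0.0270 and DESeq2 one of 0.0734, and over all alternatives it ran from 0.0122 to 1.00. Within replicate numbers the log2 ratios were 1.40, 0.79 and 1.21.

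COL2A1 had 9, 15 and 14 counts after DMSO and 6, 22 and 44 after Nutlin-3a, which overlapped (log2 difference 1.04, SE 0.64, edgeR adjusted p = 1.00). COL11A2, which the filter removed, had 3, 2 and 3 counts after DMSO and 7, 9 and 5 after Nutlin-3a. The other 18 tested collagens had log2 differences from -0.13 (COL5A3) to 0.41 (COL4A4). Of the 12 collagens called between MCF10A and G12V cells, 9 were among them, and COL4A3 and COL9A3 were not tested here. COL7A1 was at 40.2, 85.7 and 43.5 CPM after DMSO and at 41.3, 97.0 and 51.3 CPM after Nutlin-3a (log2 difference 0.16, SE 0.37). COL4A1 was at 171, 218 and 137 CPM after DMSO and at 190.2, 207 and 122 CPM after Nutlin-3a (-0.02, SE 0.23). COL6A1 was at 20.0, 31.8 and 35.5 CPM after DMSO and at 21.7, 35.3 and 38.9 CPM after Nutlin-3a (0.14, SE 0.26). With the replicate block the SE was 0.08 for COL7A1, 0.08 for COL4A1 and 0.09 for COL6A1, and none of them was called.

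Several collagens differed more between replicate numbers than between the treatments. COL6A3 was at 64.4, 126 and 24.6 CPM after DMSO and at 82.3, 132 and 21.3 CPM after Nutlin-3a, high in replicate 2 and low in replicate 3 of both groups. Its highest DMSO library was 5.11 times its lowest. The log2 difference between the treatments was 0.14 (SE 0.67), and 0.09 (SE 0.10) with the replicate block. In 3 of the 20 tested members, COL6A3, COL5A3 and COL7A1, the highest DMSO library exceeded the lowest by more than 2 times. Type IV made up 61.3% to 62.5% of the collagen sum per kilobase after DMSO and 62.3% to 63.4% after Nutlin-3a. None of the 41 tested genes of collagen maturation and receptors was called, and 1, the receptor DDR2, had an unadjusted p under 0.05. Over all 13529 genes, 463 had an unadjusted p under 0.05.

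**Figure D5:**
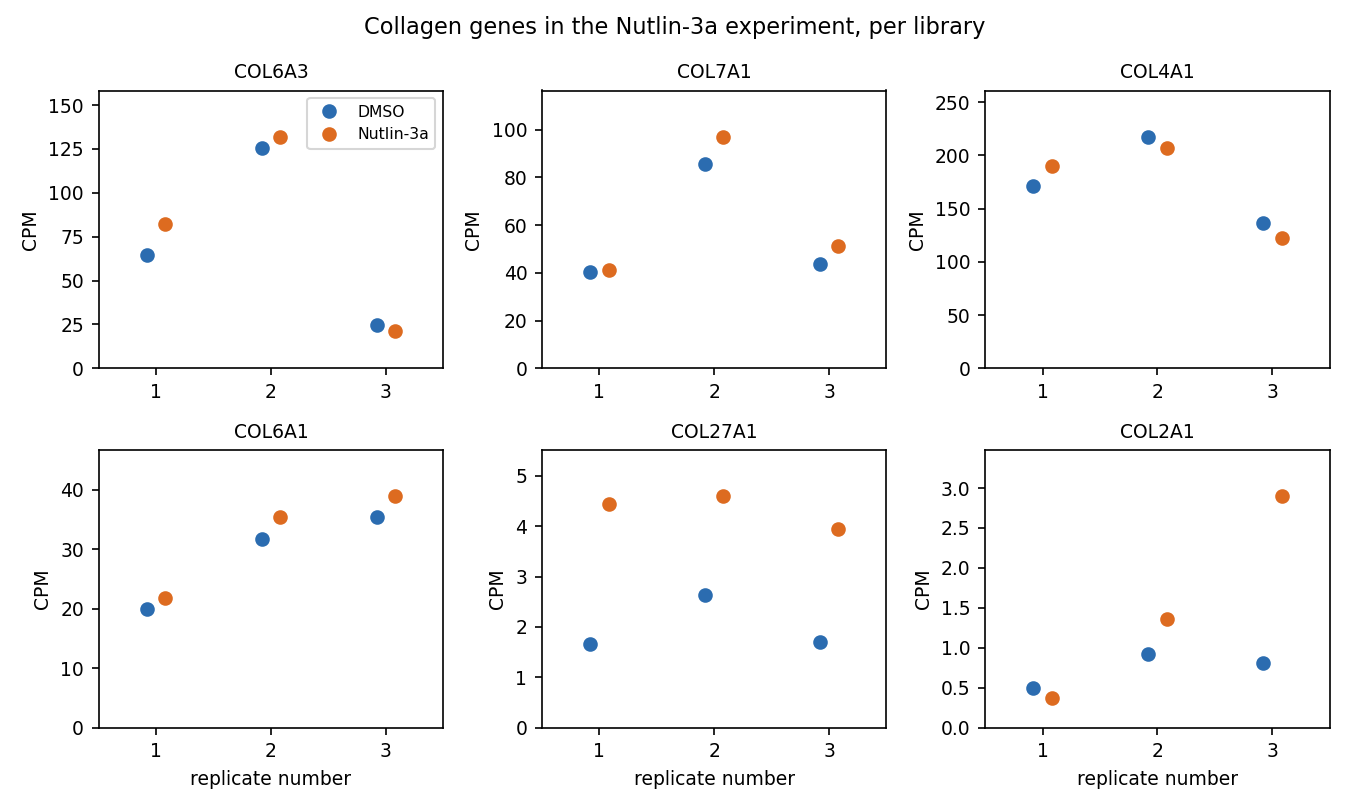
CPM of 6 collagen genes in the 3 DMSO (blue) and 3 Nutlin-3a (orange) libraries, by replicate number, on linear axes from 0. COL27A1 is higher after Nutlin-3a at each number, whereas COL6A3 follows the number, at 126 and 132 CPM in replicate 2 and 24.6 and 21.3 CPM in replicate 3.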

How the data were processed

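Poly(A) RNA from human MCF10A cells was read in 10 libraries. The authors aligned reads with TopHat to hg19 and counted them per gene with HTSeq, as their processing notes list, and the deposited values are raw counts without normalization, in 2 tables on different annotations. The annotations, strand setting and treatment of overlapping genes are not given in the sources used here, and the NEBNext Ultra kit does not mark strand. Start coordinates of both tables are 0-based (start plus 1 met a GENCODE start for 12068 of 26256 and 44238 of 55736 genes, start itself for 1236 and 1045) and are written 1-based.

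Each comparison was fitted on its whole table with edgeR 4.0.16 in R 4.3.3 (filterByExpr, TMM, quasi-likelihood F-test, Benjamini-Hochberg adjustment over all genes tested, prior count 0.125). A call needed an adjusted p under 0.05 together with a log2 fold change beyond 0.5 in either direction. A standard error (SE) is the size of a log2 fold change divided by the root of its F statistic. CPM use TMM-scaled library sizes. Ratios of genes with few counts carry exact 95% intervals, which take in counting error alone, because no molecular identifiers were used and PCR copies are counted as reads. P-values set a group difference against the spread between these libraries, with variance estimates that draw on all genes. The quasi-likelihood fit without a block was tested on simulated counts that held no replicate effect, so that test does not show how it behaves with paired libraries. DESeq2 1.42.0, other normalizations, filters and prior counts, a replicate block and the omission of each library were tried. Python 3.11.15, pandas 2.3.3 and matplotlib 3.10.9 made summaries and figures.

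In the Nutlin-3a experiment the labels give both groups replicate numbers 1, 2 and 3. A DMSO library and its Nutlin-3a namesake deviated from their groups with correlations of 0.61, 0.58 and 0.62, whereas libraries with unlike numbers gave -0.46 to -0.19. The numbers were therefore taken to pair the samples. The main fit and its standard errors did not use this pairing, and the replicate block did.

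The members, gene lists and rules were chosen with earlier results of these data known. Full values are given for called members, their trimer partners, the type IV pairs and the most abundant member of each class, and of the pathway lists for called genes and the most abundant gene of each class. Receptors and marker genes come from fixed lists.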

Additional observations from a re-analysis of the deposited data

How the results depend on the processing

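Between MCF10A and G12V cells, DESeq2 called 19 maturation and receptor genes (12 in the report) and 1111 genes higher in all (720 in the report). The exact test called 20, 1226 higher and 1300 lower (855 in the report). MCF10A and G12V libraries of the same number had deviations correlated at 0.46. With 2 libraries per group these deviations mirror each other, so both numbers give the same value and pairing cannot be judged from it. With the replicate block 10 collagens were called higher and 10 lower, 26 maturation and receptor genes, and 2071 and 2087 genes in all. COL4A2, COL18A1 and COL27A1 were called in addition with DESeq2, the exact test and the block. Leaving out 1 library gave 0 to 8 collagens called higher, 0 to 6 lower, 0 to 17 maturation and receptor genes, 0 to 1126 genes higher and 0 to 1003 lower in all. The zeros come from the fit without MCF10A replicate 1. The collagen median then ran from -0.605 to 0.415. Of the collagens, 4 changed sign, none of them called: COL5A2 (-0.23 to 0.095), COL11A2 (-1.16 to 0.50), COL8A2 (-1.35 to 1.33) and COL9A2 (-0.80 to 1.73).

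In the Nutlin-3a experiment DESeq2 called 62 genes higher and 26 lower (21 and 2 in the report), the exact test 1 collagen and 64 and 19 genes, library totals alone 4 lower, no filter 71 and 28, and the replicate block 1 collagen and 95 and 70 genes. The collagen was COL27A1 each time, and the block changed no other collagen's call. Leaving out 1 library gave 7 to 11 genes higher and 0 lower, with 0 collagens called. COL5A2 turned negative with library totals (-0.026) and without a filter (-0.00246). Of the 20 collagens, 14 changed sign when a library was left out, all with wide ranges for differences near 0: COL5A2 (-0.11 to 0.12), COL6A1 (-0.073 to 0.35), COL6A2 (-0.13 to 0.21), COL6A3 (-0.46 to 0.82), COL7A1 (-0.29 to 0.59), COL16A1 (-0.099 to 0.26), COL12A1 (-0.13 to 0.22), COL18A1 (-0.22 to 0.37), COL4A1 (-0.17 to 0.18), COL4A2 (-0.043 to 0.24), COL5A3 (-0.47 to 0.44), COL13A1 (-0.025 to 0.24), COL8A1 (-0.21 to 0.055) and COL8A2 (-0.0016 to 0.31). These fits used no replicate block, so the other library of the same number was kept without its pair. Spread between the numbers then enters the difference between the treatments. Within replicate numbers the log2 ratios were 0.12, 0.15 and 0.13 for COL6A1, and 0.15, -0.07 and -0.16 for COL4A1. The cause was not tested. At this depth, genes under about 0.2 CPM rest on 3 counts or fewer per library.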

Other observations

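The parental cells of the 2 tables can be set side by side, although the tables use different annotations and were normalized separately, the DMSO cells received vehicle, and no test was run across them. For 9 of the 12 collagens called between MCF10A and G12V cells, the DMSO libraries lay outside the MCF10A range on the side of the G12V libraries, and for 3 (COL2A1, COL4A6 and COL16A1) they overlapped it. COL9A3, among the 9, had 1, 2 and 2 counts after DMSO and 1 and 0 in MCF10A, too few to place it, which leaves 8 of 12. Of all 1524 called genes matched by symbol, 51.2% lay on the G12V side, 34.1% overlapped and 14.6% lay on the other side. Genes with few counts were kept in these shares. The calls themselves used the MCF10A libraries, so these shares are a description. COL6A2 was at 0.182 to 0.220 CPM in untreated MCF10A, 2.99 to 4.91 CPM after DMSO and 7.61 to 12.1 CPM in G12V cells. COL4A1 was at 47.7 to 71.6 CPM in untreated MCF10A, and its DMSO range of 137 to 218 CPM overlapped the G12V range of 152 to 238 CPM. COL4A4 was at 6.59 to 8.15 CPM in untreated MCF10A, 1.66 to 2.16 CPM after DMSO and 0.513 to 0.847 CPM in G12V cells. COL7A1 was at 92.6 to 149.9 CPM, 40.2 to 85.7 CPM and 1.96 to 3.25 CPM in the same order.

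Chain proportions differed between the tables as well. Per kilobase, COL6A1 exceeded COL6A2 by 5.31 to 6.08 times after DMSO, against 43.9 and 47.2 times in untreated MCF10A and 4.33 and 3.36 times in G12V cells. COL4A1 relative to COL4A2 was 0.461 to 0.544 after DMSO, against 0.328 and 0.296 in untreated MCF10A and 0.475 and 0.596 in G12V cells.

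Of the 43 collagens, 31 had a RefSeq promoter window (GRCh38.p14), running from 250 bases before to 50 bases after the start. In it 21 held a GC box, 11 a CCAAT box and 6 a TATA box (TATAAA, or TTTATA), found in 45.0%, 34.6% and 11.5% of all 35116 windows. No collagen window held the AP-1 letters TGANTCA with C or G at N, present in 4.95% of all windows, which says only that these letters are not in these windows.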
